A study of Mus musculus with 28 samples.

Results

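MEFs lacking p53 were compared at 8 arrays, 4 labelled as exposed to H2O2 and 4 labelled as untreated, out of 28 arrays in the whole series. These 8 arrays were chosen by their titles alone, and every probe set on them was analysed. The cells were primary embryonic fibroblasts of p53-/- mice, taken from embryos aged 13.5 days and used at passage 2. They received 400 μM H2O2 for 4 h or no treatment. The 4 arrays of each group stand for independent cell preparations, and both groups lacked p53 from the start of development. The labels give the strain as C57Bl/6, whereas the methods of the study name another strain for these preparations. WT and p66-/- MEFs with the same treatment, 4 arrays in each group, served as the other genotypes. The question was which transcripts H2O2 changes in cells that have no p53.

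p53 is a transcription factor that accumulates after DNA damage and switches on genes that stop the cell cycle, repair DNA or kill the cell. H2O2 also reaches cells by routes that do not need p53. It strains protein folding and thiol balance, and it acts on the kinases that feed the immediate early genes, the integrated stress response and the antioxidant genes. Fibroblasts without p53 are widely used to see which of these routes remain.

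Values are log2 signals after RMA, a procedure that corrects the background, brings all arrays to a common distribution and summarises the probes of each probe set. A change is the mean of the arrays labelled H2O2 minus the mean of the arrays labelled untreated. It is said to rise or fall where the Benjamini-Hochberg adjusted p of limma, a linear model that shares the spread across probe sets, was under 0.05. The treatment labels of these arrays run against the direction of the fold changes that the study gives for p53-/- cells. Every change in p53-/- cells is stated by the labels, and its sign turns if the labels are exchanged, while its size, its standard error and its p do not. Which reading holds cannot be told from the arrays. RNA of a whole culture was measured, so that fewer cells of a type and less RNA per cell cannot be told apart.

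The deleted gene itself could not be checked, because no probe set here was matched to Trp53 alone. The genotype was therefore checked on p53 targets with both treatments pooled, which exchanging the labels does not alter. Cdkn1a, the gene of the p21 protein that halts the cell cycle, lay 3.98 lower on the log2 scale in p53-/- than in WT MEFs (adjusted p = 1.1e-13). Ccng1, another direct target, lay 2.81 lower (adjusted p = 6.6e-08). Fibroblast markers averaged 8.54 to 9.35 on all 8 arrays, and those of endothelial cells 3.41 to 3.79. Markers of leukocytes averaged 4.59 to 6.65 and those of epithelial cells 4.42 to 5.47, and no member of these 4 lists was called. Among the leukocyte markers, however, Lyz2 averaged 9.22 untreated and 8.6 after H2O2, while each of the others averaged 6.56 or less. The spike-in RNA lys read 5.45 to 6.22 in replicates 1 and 2 and 3.28 to 3.94 in replicates 3 and 4. These pairs of replicates are called array sets below, and each holds both treatments. The sample titles name no batch, and what sets the pairs apart was not tested. The array medians lay between 4.352 and 4.464.

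Of 45037 probe sets tested, 2054 were called. By the labels, 951 of them (2.11%) rose and 1103 (2.45%) fell after H2O2, and the 1459 with a single gene symbol stand for 1259 genes. Their median change, whatever its sign, was 0.69 on the log2 scale. A change of at least 2-fold was found at 494 called probe sets, of which 291 rose and 203 fell, and of at least 4-fold at 59, of which 30 rose and 29 fell. At 1837 of the called probe sets the 2 groups of 4 arrays did not overlap, against 9.96% of all probe sets. With the replicate number as a block, which removes what same-numbered arrays share, 4129 probe sets were called, including all 2054. All 2054 had the same sign in both array sets, which their choice on these same arrays favours. Their median size was 0.63 in replicates 1 and 2 and 0.75 in replicates 3 and 4. Over all probe sets, the changes of the array sets correlated at r = 0.61. Replicates 3 and 4 alone called 3726 probe sets and replicates 1 and 2 alone called 0 by limma, with 4794 at an unadjusted p under 0.05. Without untreated replicate 3, untreated replicate 4 or H2O2 replicate 1, the calls fell to 1367, 1281 and 1330.

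The promoters of 4 of the leading genes are shown to place these genes, since no genome region was measured here. They are the first entries of RefSeq on GRCm38.p6 for the 2 largest rises and the 2 largest falls that have an entry, each a window of 300 bases around the transcription start, written in the direction of transcription. Capitals mark matches on either strand to the CCAAT box, the letters TTTGAA, the cAMP response element TGACGTCA, the AP-1 letters TGANTCA, the C/EBP-ATF letters TTGCATCA, the TATAAA box, the CArG box of the serum response factor and the p53 half-site. Adm lies at chr7:110627407-110627706 (+), Id4 at chr13:48260866-48261165 (+), Gadd45a at chr6:67037358-67037657 (-) and Atf3 at chr1:191183284-191183583 (-).
Adm: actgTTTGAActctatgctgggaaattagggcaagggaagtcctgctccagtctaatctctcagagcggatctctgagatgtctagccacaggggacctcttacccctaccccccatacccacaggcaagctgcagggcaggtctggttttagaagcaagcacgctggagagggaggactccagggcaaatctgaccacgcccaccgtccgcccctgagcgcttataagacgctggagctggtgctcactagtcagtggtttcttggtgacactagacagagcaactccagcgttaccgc
Id4: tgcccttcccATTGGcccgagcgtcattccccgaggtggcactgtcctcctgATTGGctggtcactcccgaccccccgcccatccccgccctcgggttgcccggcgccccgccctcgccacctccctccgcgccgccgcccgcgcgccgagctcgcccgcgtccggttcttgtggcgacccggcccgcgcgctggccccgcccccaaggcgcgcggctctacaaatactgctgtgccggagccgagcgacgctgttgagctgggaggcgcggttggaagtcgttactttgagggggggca
Gadd45a: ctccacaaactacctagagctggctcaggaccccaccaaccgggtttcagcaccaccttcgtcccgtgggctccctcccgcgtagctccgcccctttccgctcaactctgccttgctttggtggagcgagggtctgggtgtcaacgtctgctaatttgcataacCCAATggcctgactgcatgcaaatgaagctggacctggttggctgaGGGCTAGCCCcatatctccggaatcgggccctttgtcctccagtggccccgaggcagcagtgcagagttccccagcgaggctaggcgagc
Atf3: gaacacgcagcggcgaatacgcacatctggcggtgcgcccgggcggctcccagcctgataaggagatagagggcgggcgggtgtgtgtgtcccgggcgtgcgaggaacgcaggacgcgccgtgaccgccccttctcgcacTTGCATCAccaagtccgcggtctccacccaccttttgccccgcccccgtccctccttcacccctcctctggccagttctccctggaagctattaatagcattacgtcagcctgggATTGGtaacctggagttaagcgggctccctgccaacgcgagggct

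The Gadd45a window held a p53 half-site at positions -40 to -31 from the start and a CCAAT box on the same strand. The Atf3 window held TTGCATCA, the composite letters bound by dimers of C/EBP and ATF proteins, at positions -110 to -103 from the start. The Id4 window held CCAAT on the opposite strand at 2 places, and the Adm window held TTTGAA alone. A promoter was listed for 482 of the 600 genes that only rose and for 551 of the 648 that only fell, and the share with each motif was set beside the 27025 genes of the table. TGACGTCA, the cAMP response element, lay in 4.36% of the rising, 5.63% of the falling and 1.88% of all promoters. The p53 half-site lay in 6.02, 6.72 and 8.37% and TTGCATCA in 0.415, 1.27 and 0.929%. TATAAA lay in 7.05, 7.08 and 14.2%, TTTGAA in 10.8, 9.8 and 18.1%, and TGANTCA, the AP-1 letters, in 3.53, 6.72 and 7.93%. CCAAT lay in 39.4, 37.7 and 37.9% and the CArG box in 1.45, 2.54 and 1.57%. The 27025 genes include some without a single-symbol probe set here, so that they are no matched background, and the shares were not tested. A match says only that these letters are in the window.

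The leading rises and falls were taken only from probe sets whose groups do not overlap, so that their separation is no further result. By the labels, the largest rises were those of Id1, Adm and Id4. Id1 and Id4 encode inhibitors of DNA binding that block differentiation factors. Id1 read 5.64, 5.95, 5.94 and 5.38 on the untreated arrays and 9.73, 8.67, 9.68 and 9.15 on the H2O2 arrays. Its change was 3.58 on the log2 scale, or 12-fold (standard error 0.44, adjusted p = 3.1e-05), and the groups lay far apart. Adm, the precursor of the vasodilator peptide adrenomedullin, read 5.03, 5.71, 4.68 and 4.68 untreated and 8.16, 7.94, 8.84 and 8.43 after H2O2. It rose by 3.32 (standard error 0.36, adjusted p = 9.8e-06), and its lowest treated array lay well above its highest untreated array. Id4 read 5.15, 4.43, 4.39 and 4.38 untreated and 8.32, 7.38, 7.77 and 7.76 after H2O2, a rise of 3.22 (standard error 0.72, adjusted p = 0.0097).

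The next rises included feedback inhibitors of the ERK pathway and matricellular genes. Spry4, a Sprouty inhibitor of receptor signalling, read 3.86, 6.53, 4.0 and 3.78 untreated and 7.3, 7.10, 7.91 and 8.05 after H2O2, a rise of 3.05 (adjusted p = 0.0024). Dusp6, a phosphatase that inactivates ERK, read 5.46, 7.6, 5.23 and 5.24 untreated and 8.80, 8.37, 8.61 and 8.98 after H2O2, a rise of 2.81 (adjusted p = 0.00095). In both genes untreated replicate 2 lay nearest to the treated arrays without reaching them. The same array was the highest of its group for Tnc (5.90), Phlda1 (9.27), the heat shock gene Hspa1b (6.31) and Cdk12 (5.17). Without it, Spry4 changed by 3.71 and Dusp6 by 3.38, and both calls held (adjusted p = 0.00013 and 3.7e-05). The other probe sets of Spry4 changed by 0.28 to 0.31 and that of Tnc by 0.09, none of them called, so that these rises rest on a single probe set each.

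Ccn1, a matricellular protein driven by YAP and SRF, rose by 2.83 (adjusted p = 0.0014), Tnc, the matrix protein tenascin-C, by 2.8 (adjusted p = 0.0039) and Hspa1b, an inducible Hsp70 chaperone, by 2.89 (adjusted p = 0.00025). Phlda1 and Nfkbiz, an atypical IkB protein that steers secondary NF-kB genes, rose by 2.74 each. Rgs16, which shortens G protein signals, rose by 2.67, from 5.13 to 5.55 untreated to 7.83 to 8.2 after H2O2, while its second probe set changed by 0.61 and was not called. Cdk12, a kinase of the RNA polymerase II tail, rose by 2.58 at its leading probe set, while its better expressed probe set rose by 0.75 (adjusted p = 0.0025). For each of these genes the lowest H2O2 array lay above the highest untreated array, as the choice of the leading genes required.

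The largest falls were those of the stress genes Gadd45a, Tcim and Atf3. Gadd45a, a growth arrest gene under p53 and ATF4, read 9.78, 9.84, 9.73 and 9.15 on the untreated arrays and 6.20, 6.54, 6.73 and 6.80 on the H2O2 arrays. It fell by 3.06 (standard error 0.31, adjusted p = 3.9e-06), and the groups were 8.32-fold apart with no overlap. Atf3, a transcription factor of the stress response, read 8.54, 9.39, 8.76 and 8.85 untreated and 5.57, 6.30, 6.08 and 5.98 after H2O2, a fall of 2.90 (standard error 0.27, adjusted p = 1.7e-06). Tcim read 8.30, 9.33, 8.39 and 7.84 untreated and 4.89, 6.73, 4.79 and 5.26 after H2O2, a fall of 3.05 (adjusted p = 0.010). In Tcim replicate 2 was the highest array of both groups.

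Ppp1r15a, which encodes the GADD34 subunit that reverses eIF2α phosphorylation, had the lowest adjusted p of the named genes. It read 9.42, 9.52, 9.07 and 9.12 untreated and 6.96, 7.15, 6.57 and 6.81 after H2O2, a fall of 2.41 (standard error 0.19, adjusted p = 2.6e-07). Fgf21, a hormone released by stressed cells, read 5.97, 7.22, 6.47 and 7.03 untreated and 4.0, 4.54, 4.28 and 4.28 after H2O2, a fall of 2.40 (adjusted p = 3.0e-05). Mt1, a metal-binding metallothionein, fell by 2.38 from 10.60 to 11.32 untreated (adjusted p = 0.00059). The falls of 2610528A11Rik, H2-DMa, Tcte3, Klhl24, H2bc21 and Gzmm lay between 2.33 and 2.85. Klhl24 was no longer called without untreated replicate 2 (adjusted p = 0.065), nor in the least favourable case of 1 array left out (adjusted p = 0.070). Its 2 other probe sets changed by -1.31 and -0.95 and were not called. The second probe sets of H2-DMa and Tcte3 fell by 0.85 and 0.68. The second probe set of Mt1 changed by -0.53 and was not called.

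**Figure D1:**
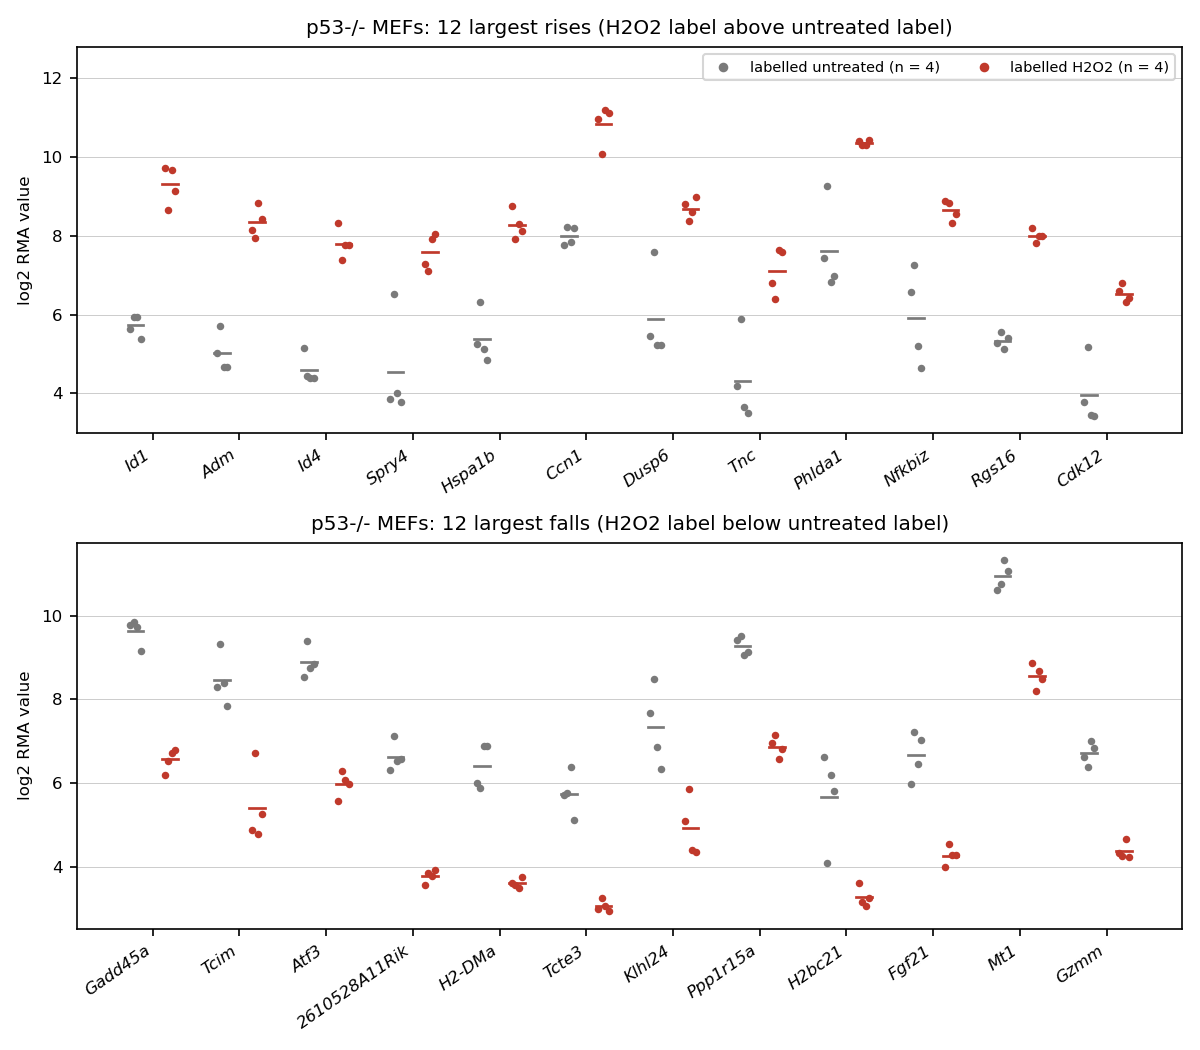
Log2 RMA value (vertical axis) of the 12 genes with the largest rises (top) and the 12 with the largest falls (bottom) in p53-/- MEFs, by the treatment labels. Each point is an array, 4 labelled untreated in grey and 4 labelled H2O2 in red, and bars are group means. The 24 genes were chosen among those whose groups do not overlap, and untreated replicate 2 lies high for Spry4, Dusp6 and Phlda1.

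At 1 probe set per gene, 2.86% of 17097 genes rose and 3.02% fell, and the median change of all genes was -0.05. The gene lists are read against these shares. They were chosen with earlier results of these data known, so that counts above these shares describe the lists and test nothing. Of 79 called list members, 24 were no longer called when 1 array was left out, between 8 of them (without untreated replicate 1) and 18 (without untreated replicate 4). These 24 are named with their lists, with the highest adjusted p over the 8 arrays left out in turn. Of the 47 called members with further probe sets, 21 had none of those called. For some of the 21 the second probe set changed by -0.03 (Orc1), 0.27 (Mtf1), 0.41 (Cdk9), -0.61 (Txnip), 0.86 (Fosl1) and -1.55 (Sesn2). The 2 further probe sets of Sc5d changed by 0.14 and 1.5, and those of Cebpg by -0.91 and -0.34. Of 34 measured p53 targets, 4 rose and 4 fell by the labels, with a median change of 0.04. The 4 that fell were Gadd45a, Bbc3, Sesn2 and Cdkn1a. Bbc3, which encodes the death protein PUMA, read 7.23, 7.81, 7.33 and 7.58 untreated and 5.60, 6.58, 5.81 and 6.04 after H2O2, a fall of 1.48 (adjusted p = 0.00055). Sesn2, an inhibitor of mTORC1 that ATF4 also drives, fell by 1.46 (adjusted p = 6.5e-05). Cdkn1a read 7.42, 8.05, 7.96 and 7.18 untreated and 6.47, 6.39, 6.94 and 6.75 after H2O2, a fall of 1.02 (adjusted p = 0.0061).

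The 4 targets that rose were Gtse1, Phlda3, Aen and Zmat3. Phlda3, a repressor of Akt, read 7.72, 8.23, 7.99 and 8.02 untreated and 8.51, 8.78, 8.81 and 8.82 after H2O2, a rise of 0.74 (standard error 0.15, adjusted p = 0.0041). Gtse1, a microtubule protein of G2 cells, rose by 0.87 (adjusted p = 0.018), Aen, a nuclease of apoptosis, by 0.72 (adjusted p = 0.013) and Zmat3, an RNA-binding protein, by 0.59 (adjusted p = 0.014). Without H2O2 replicate 3 Zmat3 was no longer called (adjusted p = 0.052), nor was Gtse1 without untreated replicate 3, untreated replicate 4 or H2O2 replicate 1 (adjusted p up to 0.059). The other probe sets of Aen, with changes from 0.07 to 0.85, were not called. Mdm2, the ligase that degrades p53, read 7.68 ± 0.38 (SD, n = 4) untreated and 7.67 ± 0.31 after H2O2, a change of -0.01 (adjusted p = 0.99). In WT MEFs Mdm2 averaged 8.57 untreated and 10.3 after H2O2, and the median change of the 34 targets was 0.81.

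With treatments pooled, 21 of the 34 targets lay below the WT level and 0 above it, whereas 0.953% of all genes lay below. The median level difference of the 34 was -0.83. Eda2r, a receptor of the TNF family, lay 4.43 below WT, Trp53inp1, a stress protein, 3.89 and Phlda3 2.13. Of the 4 targets that fell, Cdkn1a was called below WT, while Gadd45a, Sesn2 and Bbc3 had differences of -0.20, -0.49 and -0.67 (adjusted p = 0.77, 0.08 and 0.052). With the replicate block Sesn2 and Bbc3 were called as well (adjusted p = 0.031 and 0.0063). By the labels the response differed from WT at 13 of the 34, against 10.8% of all probe sets. With the labels exchanged it differed at 2, Phlda3 and Gtse1, against 0.02% of all probe sets. A target not called there, such as Mdm2, is not thereby shown to respond as in WT.

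**Figure D2:**
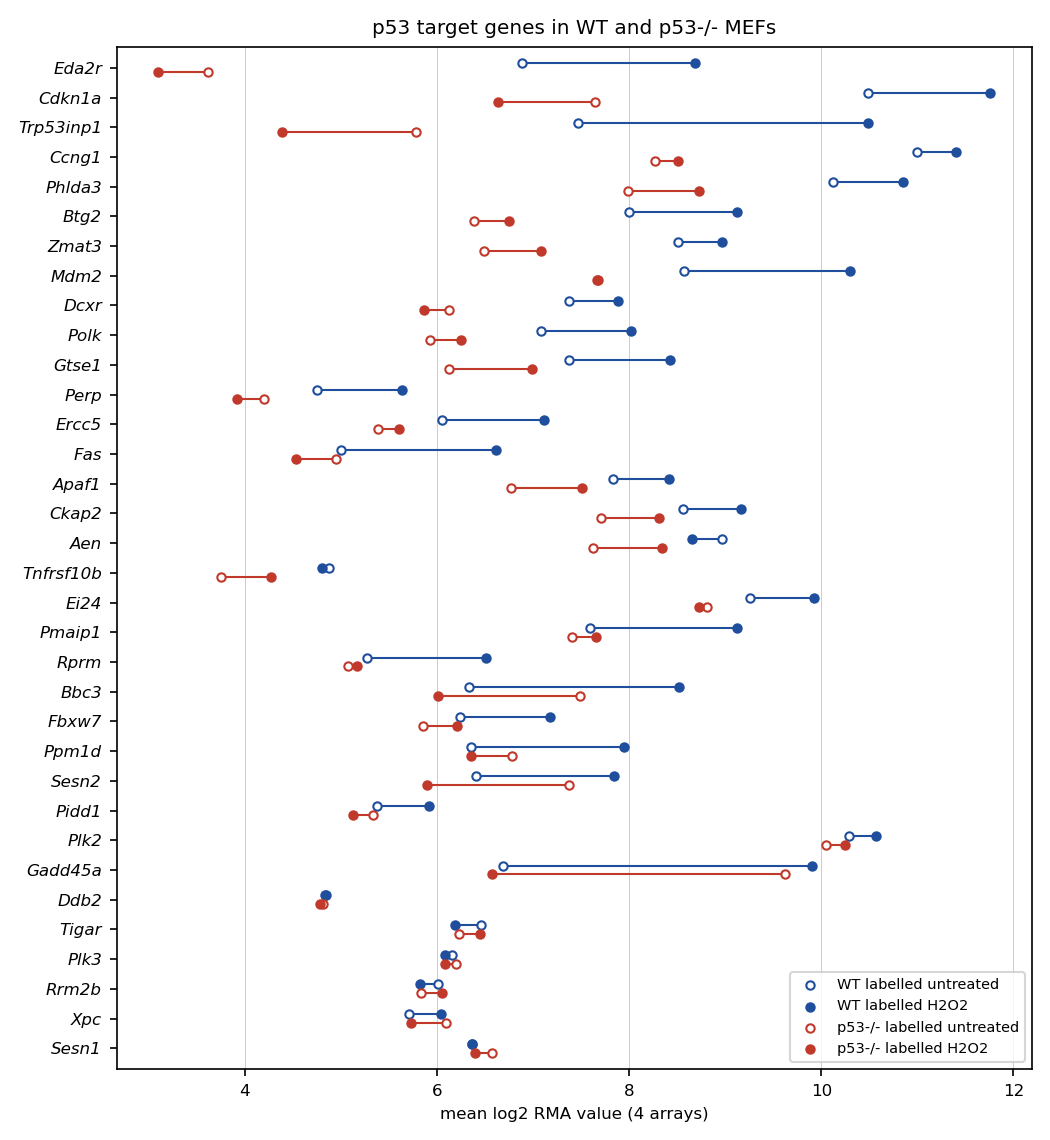
Mean log2 RMA value (horizontal axis) of 34 p53 targets in WT MEFs (blue) and p53-/- MEFs (red), with open circles for arrays labelled untreated and filled circles for arrays labelled H2O2, 4 arrays each. The red pairs lie left of the blue pairs for most genes at the top, such as Eda2r and Cdkn1a, while Gadd45a spans the same range in both genotypes with its labels in opposite order.

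ERK feedback genes had the highest median change of the 30 lists. Of 15 ERK feedback genes, 8 rose and 0 fell, with a median change of 0.78 (0.64 in replicates 1 and 2, 1.16 in replicates 3 and 4) and of -0.73 in WT MEFs. Besides Spry4, Dusp6 and Phlda1 they were Errfi1, an inhibitor of the EGF receptor (2.06), Spry2 (1.42), Ier3 (1.19), Spry1 (1.18) and Etv5 (0.78). Leaving out 1 array ended the calls of Spry2, Ier3 and Etv5 (adjusted p up to 0.12, 0.087 and 0.074), and the second probe set of Spry2 changed by -0.02. Of 19 Id, Smad and TGF-β or BMP genes, 6 rose and 0 fell, or 6 and 1 with the replicate block. The median was 0.49 against -0.36 in WT, but 0.33 over all probe sets of these genes and 0.28 in replicates 1 and 2. Id2 read 6.85, 6.74, 8.41 and 7.27 untreated and 9.77, 9.46, 10.25 and 9.92 after H2O2, a rise of 2.54 (adjusted p = 0.0047). Bambi, a decoy receptor that dampens TGF-β signals, rose by 2.28 (adjusted p = 0.00083), Id3 by 1.88 (adjusted p = 0.039) and Ccn2, a matricellular protein, by 1.21 (adjusted p = 0.0095). Id3 was no longer called whichever of the 8 arrays was left out (adjusted p up to 0.092), and Ccn2 without untreated replicate 4 (adjusted p = 0.05).

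YAP and SRF targets, which follow cell shape and the actin skeleton, all had positive changes. Of 16 measured, 4 rose and 0 fell, or 7 and 0 with the replicate block, with a median of 0.41 against -0.43 in WT. Beside Ccn1 and Ccn2, the Hippo kinase gene Lats2 rose by 1.04 (adjusted p = 0.017) and Amotl2, which holds YAP in the cytoplasm, by 0.60 (adjusted p = 0.044). Leaving out 1 array ended the calls of Ccn2, Lats2 and Amotl2 (adjusted p up to 0.05, 0.087 and 0.12), so that Ccn1 alone held under each. The 4 other probe sets of Lats2, with changes from -0.05 to 0.29, were not called. The AP-1 and immediate early genes split. Fos read 4.53, 5.57, 4.79 and 4.83 untreated and 6.06, 7.05, 7.21 and 6.92 after H2O2, a rise of 1.88 (adjusted p = 0.027), and Egr2 (1.81), Fosl1 (1.42), Klf2 (1.24) and Ier3 also rose. Atf3 and Klf4, a factor of growth arrest (-1.17, adjusted p = 0.0070), fell, so that 5 of 24 rose and 2 fell, with a median of -0.02. Leaving out 1 array ended the calls of Fos, Fosl1, Egr2 and Ier3 (adjusted p up to 0.079, 0.15, 0.13 and 0.087), so that Klf2 alone of the 5 rises held under each.

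Part of a joint list of integrated stress and unfolded protein response genes fell by the labels. In the integrated stress response, phosphorylation of eIF2α slows translation and lets ATF4 switch on genes of amino acid supply and cell death. Of 24 measured, 0 rose and 7 fell, or 1 and 11 with the replicate block, and the median was -0.29 against 0.25 in WT. Ddit3, which encodes CHOP, read 9.28, 10.02, 10.03 and 10.00 untreated and 7.62, 7.88, 8.05 and 8.07 after H2O2, a fall of 1.93 (standard error 0.27, adjusted p = 0.00012). Trib3, a pseudokinase that restrains ATF4, read 8.92, 9.77, 9.35 and 9.52 untreated and 7.48, 7.23, 7.88 and 7.87 after H2O2, a fall of 1.77 (adjusted p = 0.00034). The other members that fell were Ppp1r15a, Sesn2, Vldlr (-1.37), Cebpg (-0.92) and Herpud1 (-0.66). The remaining 17 were not called, among them the protein folding genes Hspa5, Hsp90b1, Calr and Pdia4. Vldlr was no longer called without H2O2 replicate 2 (adjusted p = 0.051), nor was Herpud1 without 1 of 3 arrays (adjusted p up to 0.13). Among 15 serine and one-carbon genes Slc3a2, a subunit of amino acid exchangers, fell by 0.83 (adjusted p = 0.00020), while Asns, Psph and Cth were not called (adjusted p = 0.21, 0.25 and 0.41).

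Of 12 metal genes 3 passed the test, and of the thiol antioxidant genes 0 of 22 did. Among all genes 2.86% rose and 3.02% fell, so that 0 of 22 sets the antioxidant genes little apart. Of the 12 heme, iron and metal genes, Mt1 and the zinc exporter Slc30a1 (-1.55, adjusted p = 0.019) fell, while Mtf1, the factor that drives both in the presence of zinc, rose by 0.73 (adjusted p = 0.028), and the other 9 were not called. Leaving out 1 array ended the calls of Slc30a1 and Mtf1 (adjusted p up to 0.063 and 0.085). Hmox1, the heme oxygenase often used as a mark of oxidative stress, read 8.80, 8.28, 8.27 and 8.21 untreated and 6.86, 7.28, 7.73 and 7.39 after H2O2. Its change of -1.08 did not pass (standard error 0.34, adjusted p = 0.081), although its groups did not overlap. Of 22 Nrf2 genes 0 were called by limma, with changes from -0.69 to 0.41 and a median of -0.10, and with the replicate block 1 rose and 2 fell. Of 15 heat shock genes, Hspa1b and Hspa8, the constitutive Hsc70 (0.39, adjusted p = 0.019), rose and 0 fell, or 5 and 0 with the replicate block, and 13 of the 15 had positive changes. The call of Hspa8 ended without 1 of 3 arrays (adjusted p up to 0.071), while its 3 other probe sets were all called.

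Circadian, FoxO and Myc network genes fell or split. Of 17 clock genes, 0 rose and 5 fell, with a median of -0.49 against 0.46 in WT. Ciart, a repressor of the clock, read 6.75, 6.37, 6.94 and 6.62 untreated and 5.02, 5.12, 5.54 and 5.49 after H2O2, a fall of 1.37 (adjusted p = 6.2e-05). Per1 fell by 0.88, Tef by 0.83, Rora by 0.66 and Nfil3 by 0.93, with adjusted p between 0.00041 and 0.031. Nfil3 was no longer called without 1 of 5 arrays (adjusted p up to 0.12), and the other probe sets of Rora and Tef were not called. Of 16 FoxO, quiescence and autophagy genes, 6 fell and Klf2 rose, with a median of -0.49 over 1 probe set per gene and of -0.34 over all their probe sets. Gabarapl1, which tags autophagosomes, read 9.82, 9.66, 9.74 and 9.59 untreated and 8.82, 8.81, 8.76 and 8.70 after H2O2, a fall of 0.93 (standard error 0.10, adjusted p = 9.3e-06). The other 5 were Tsc22d3 (-1.39), Ccng2, a cyclin of quiescent cells (-1.24), Bcl6 (-1.20), Foxo3 itself (-1.16) and Txnip, which binds thioredoxin (-0.95).

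Of 16 Myc network genes, Mnt, Mxi1 and Mxd1, which oppose Myc at its sites, fell by 1.24, 0.91 and 0.78. Mlx and Mlxip, the partners of the glucose-sensing branch, rose by 1.57 and 0.44. All 5 calls had an adjusted p between 0.00030 and 0.0067, but the second probe sets of Mnt and Mxi1 changed by -0.18 and -0.34 and were not called. Of 15 Bcl2 family genes Bbc3 and Bmf fell and 0 rose, and Bmf, a BH3-only death protein, read 5.51, 5.86, 7.08 and 6.62 untreated and 4.24, 4.34, 4.47 and 4.46 after H2O2. Its change was -1.89 (adjusted p = 0.00012), but its 2 other probe sets changed by -0.27 and -0.15 and were not called. With the replicate block 1 of the 15 rose and 3 fell. Of 17 hypoxia genes, Adm, Slc2a1 (1.14), Ankrd37 (0.96) and Pfkfb3 (0.71) rose, while Ndrg1 fell by 1.78 (adjusted p = 0.00032). Pfkfb3 was no longer called without 1 of 7 arrays (adjusted p up to 0.12), and its second probe set changed by -0.20.

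The cell cycle lists are read beside the 2.86% of all genes that rose and the 3.02% that fell. Of 39 G2 and mitosis genes Ccnf, the cyclin of an SCF ubiquitin ligase, alone was called, with 5.57, 5.79, 5.42 and 5.75 untreated and 7.42, 6.93, 7.08 and 7.26 after H2O2 (1.54, adjusted p = 0.0050). The list had 33 positive changes, a median of 0.30 against -0.45 in WT, and 5 rises and 0 falls with the replicate block. Cdc20 (0.73, adjusted p = 0.17), Espl1 (0.86, adjusted p = 0.13) and Hmmr (0.73, adjusted p = 0.18) did not pass, though Cdc20 and Espl1 did with the block (adjusted p = 0.01 and 0.017). Of 36 G1-S genes E2f8, a repressor of E2F targets (1.35, adjusted p = 0.00020), Skp2 (0.76) and Orc1 (0.63) rose and 0 fell, whereas 5 rose and 2 fell with the replicate block. The falls under the block were those of the replication genes Cdt1 (-0.88, adjusted p = 0.00089) and Mcm7 (-0.44, adjusted p = 0.035). Leaving out 1 array ended the calls of Skp2 and Orc1 (adjusted p up to 0.054 and 0.12), and the second probe set of E2f8 changed by -0.25 and was not called. Of 24 DNA repair genes H2ax, the histone phosphorylated at DNA breaks (1.15, adjusted p = 0.012), and the exonuclease gene Exo1 (1.40, adjusted p = 0.025) rose and 0 fell, or 3 and 1 with the block. Exo1 was no longer called without 1 of 5 arrays (adjusted p up to 0.072).

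Of 17 genes of transcription elongation and mRNA decay, 5 rose and 0 fell, or 8 and 0 with the replicate block, with a median of 0.35 against -0.30 in WT. Hexim1, the inhibitor of P-TEFb, read 5.60, 6.71, 5.49 and 6.13 untreated and 7.27, 7.48, 7.38 and 7.46 after H2O2, a rise of 1.41 (adjusted p = 0.00018). Cdk9, the kinase of P-TEFb, rose by 0.60 (standard error 0.09, adjusted p = 0.00019), Cdk13 by 0.97, Cdk12 by 0.75 and Tob2 by 0.65. Tob2 was no longer called without 1 of 5 arrays (adjusted p up to 0.12), and the other probe sets of Cdk13 changed by -0.27 and -0.08 and were not called. Of 17 cholesterol genes Sc5d alone rose (0.68, adjusted p = 0.0083), or 3 with the block, 16 had positive changes, and the median was 0.43 against -0.69 in WT. Of 18 NF-kB genes Nfkbiz rose and Relb fell (-1.17, adjusted p = 0.035), while Cxcl5 read 7.19, 2.94, 8.18 and 5.70 on the H2O2 arrays and was not called (2.45, adjusted p = 0.14). Relb was no longer called without 1 of 7 arrays (adjusted p up to 0.13), and with the block 3 of the 18 rose and 1 fell. The 14 interferon genes all had negative changes (median -0.26), and 0 were called by limma with or without the block. Glycolytic enzymes, collagens, matrix proteases, ribosomal proteins, respiratory chain subunits, chromatin enzymes and housekeeping genes had 0 calls by limma, or 0 to 2 a list with the replicate block, with medians from -0.12 to 0.10.

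**Figure D3:**
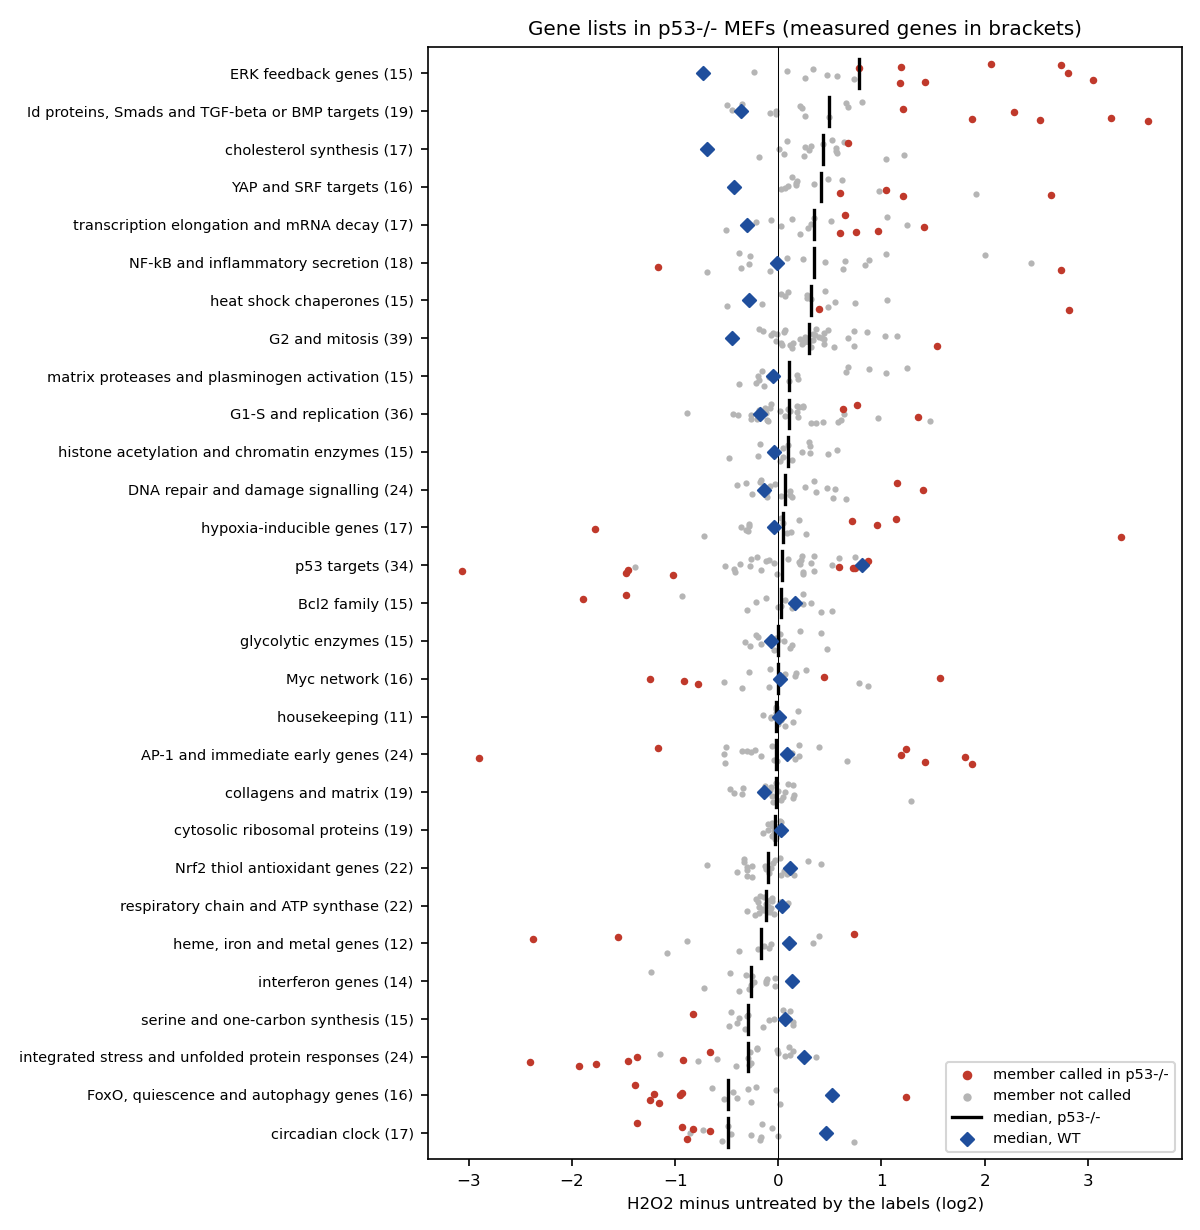
Log2 change after H2O2 by the labels (horizontal axis) of each measured member of 29 gene lists in p53-/- MEFs. Red points passed the test and grey points did not, black bars are list medians in p53-/- MEFs, and blue diamonds are the medians of the same genes in WT MEFs. ERK feedback genes have the highest median (0.78) and clock and FoxO genes the lowest (-0.49), and the WT medians of these lists lie on the other side of 0.

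The response was then set beside that of WT MEFs, which shares no array with it. Both tests used the same estimate of the spread at each probe set, so that their calls are not independent. In WT MEFs 1650 of the 45037 probe sets were called. Of the 2054 probe sets called in p53-/- MEFs, 1069 were also called in WT MEFs, which is 52.0% of the p53-/- calls and 64.8% of the WT calls. By the labels 1066 of them moved in opposite directions and 3 in the same direction. The changes had opposite signs at 97.4% of the 2054, against 72.2% of all probe sets. Across all probe sets the 2 changes correlated at r = -0.82, and at -0.67 and -0.82 within the array sets. This is a description over probe sets, which share arrays and are not independent. In p66-/- MEFs the signs were opposite at 92.0% of the 2054, with r = -0.44.

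Sizes were close to those of WT with the sign turned. Over the 1650 probe sets called in WT, the median ratio of the p53-/- change to the WT change was -0.88, and that of the p66-/- change was 0.43. Gadd45a read 6.69, 7.14, 6.15 and 6.78 on untreated and 10.15, 10.16, 9.39 and 9.92 on H2O2 arrays of WT cells, a change of 3.22 (adjusted p = 2.8e-06). The untreated p53-/- arrays thus lay within the range of the treated WT arrays for this gene but for 1 array at 9.15, and the H2O2-labelled p53-/- arrays within that of the untreated WT arrays. Adm fell by 3.04 and Id1 by 2.56 in WT, and Atf3 rose by 2.85. By the labels the response differed from WT at 4866 probe sets, or 10.8%, and with the p53-/- labels exchanged at 9, or 0.02%, with 928 at an unadjusted p under 0.05. By the labels, the 8 largest differences with p53-/- higher included Adm (6.36), Id1 (6.14) and Id4 (5.82). The 8 largest with p53-/- lower included Tcim (-6.93), Gadd45a (-6.27) and Atf3 (-5.75).

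**Figure D4:**
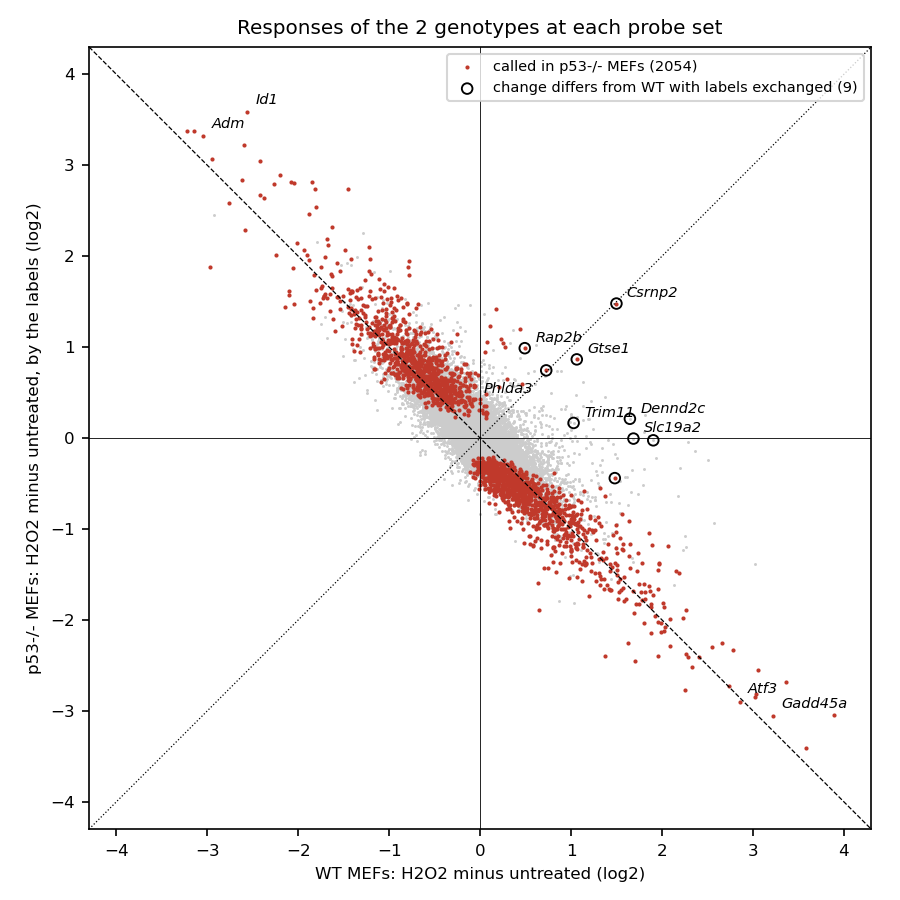
Log2 change after H2O2 in WT MEFs (horizontal axis) against that in p53-/- MEFs by the labels (vertical axis) at 45037 probe sets, with the 2054 called in p53-/- MEFs in red. The points follow the dashed line of equal size and opposite sign, and the 9 circled probe sets, among them Slc19a2 and Csrnp2, lie off it on the right, where WT rose.

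The 9 probe sets that differed from WT with the labels exchanged were all lower in p53-/- MEFs under that reading, and 7 of them had a gene symbol. Of the 9, 5 were also called by the labels, so that their difference holds under both readings (0.0111% of probe sets). Slc19a2, a thiamine transporter, read 7.16, 7.09, 6.87 and 6.48 untreated and 7.04, 6.97, 6.80 and 6.77 after H2O2 in p53-/- MEFs, a change of -0.01 (standard error 0.18, adjusted p = 0.99). In WT MEFs it read 8.48, 8.32, 8.30 and 8.35 untreated and 10.03, 10.44, 9.64 and 10.09 after H2O2, a rise of 1.69 (adjusted p = 1.3e-05). The 2 groups overlapped in p53-/- cells and lay apart in WT cells. The response was lower than in WT by the labels (-1.69, adjusted p = 0.00010) and after exchanging them (-1.68, adjusted p = 0.010), and the pooled level lay 2.31 below WT.

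Dennd2c, a gene of the DENN family of Rab activators, read 3.99, 3.8, 3.72 and 4.02 untreated and 4.18, 3.90, 4.19 and 4.10 after H2O2 in p53-/- MEFs (0.21, adjusted p = 0.61). In WT MEFs it rose by 1.65, from 4.45 to 4.50 untreated to 5.74 to 6.53 after H2O2. It differed from WT by -1.44 as labelled (adjusted p = 0.00056) and by -1.86 after exchanging the labels (adjusted p = 0.0048). Trim11, a ubiquitin ligase, changed by 0.17 in p53-/- MEFs (adjusted p = 0.61) and by 1.03 in WT MEFs (adjusted p = 0.00015), with differences of -0.86 and -1.19 (adjusted p = 0.0066 and 0.033). The other 2 have no gene symbol here. The first changed by -0.02 against 1.9 in WT, and the second fell by 0.44 (adjusted p = 0.0058) against a rise of 1.48.

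The 3 genes called in the same direction in both genotypes by the labels were Csrnp2, Gtse1 and Phlda3. Csrnp2, a nuclear protein of the cysteine-serine-rich family, read 5.02, 6.44, 5.51 and 6.00 untreated and 7.02, 7.43, 7.22 and 7.21 after H2O2, a rise of 1.48 (standard error 0.26, adjusted p = 0.0016). In WT MEFs it rose by 1.5, from 6.54 to 7.34 untreated to 8.0 to 8.72 after H2O2. As labelled these rises differed by -0.02 (adjusted p = 0.98), and after exchanging the labels by -2.98 (standard error 0.37, adjusted p = 0.0013). Phlda3 rose by 0.73 and Gtse1 by 1.06 in WT, and with the labels exchanged they differed by -1.47 and -1.93 (adjusted p = 0.0055 and 0.010). Rap2b, a small GTPase, rose by 0.99 in p53-/- MEFs and was not called in WT (0.49, adjusted p = 0.17), with a difference of 0.5 as labelled (adjusted p = 0.25) and of -1.48 after exchanging the labels (adjusted p = 0.033). All 7 named genes lay below the WT level with treatments pooled, by 0.89 to 2.31.

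**Figure D5:**
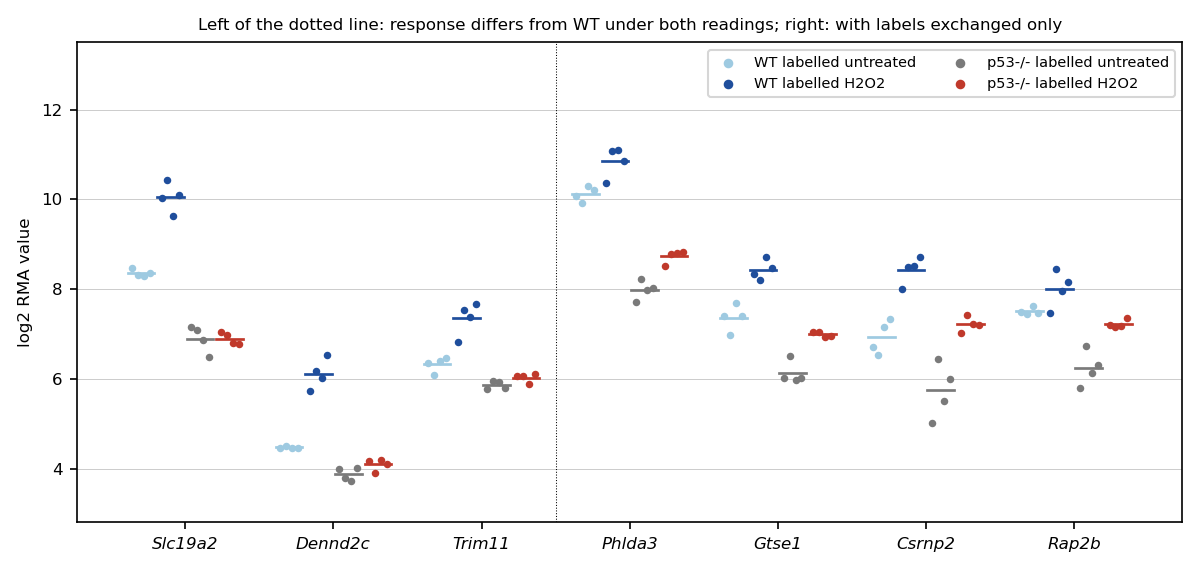
Log2 RMA value (vertical axis) on each array, with group means as bars, of the 7 named genes whose response differed from WT with the p53-/- labels exchanged. For Slc19a2, Dennd2c and Trim11 the grey and red points of p53-/- MEFs lie at about the same height under either label, while for Phlda3, Gtse1, Csrnp2 and Rap2b the red points lie above the grey.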

How the data were processed

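RNA was labelled with biotin and hybridised to Affymetrix MOE430PM array strips. Per the submitters' processing notes, the authors used Partek 6.5 and RMA. What they deposited is log2 signal, from 1.953 to 13.47, and was used without further transformation. Arrays have no sequencing depth, and their number limits the precision.

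Of 45141 probe sets, 104 controls were left out. A single symbol was found for 28898, which stand for 17097 genes, several for 551 and none for 15588.

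limma 3.58.1 in R 4.3.3 fitted all 28 arrays in 8 groups without a block, and p-values were adjusted over all 45037 probe sets after Benjamini and Hochberg. Gene lists used the probe set with the highest mean of each gene. Named genes were the 12 largest rises and 12 largest falls with groups that do not overlap, up to 4 members of each list by adjusted p with called members against the majority, the 8 largest differences from WT either way, and genes of the same direction in both genotypes or differing from WT under either reading. The genes given beyond this rule were chosen after their values were seen. The members and lists were chosen with earlier results of these data known. The fit was tested on simulated data.

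Same-numbered p53-/- arrays deviated together (correlations of 0.73, 0.64, 0.671 and 0.549 of their deviations from the group means). Between replicates 1 and 2, arrays of unlike number correlated at 0.063 and 0.127, so that the numbers pair these samples. Between replicates 3 and 4 they correlated at 0.546 and 0.536, so that pairing cannot be told from the shared array set there. The labels call the replicates biological, and p-values measure the spread between them. The alternatives were the replicate block, the array sets, fewer arrays, a low-value filter, quantile normalisation, the methods' t-test, other thresholds and leaving out each array. The p66-/- arrays served for comparison and the spread, and the doxorubicin arrays only for the spread.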

Additional observations from a re-analysis of the deposited data

Results flagged for a closer look

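The treatment labels were flagged because the response of p53-/- MEFs differed from that of WT MEFs at 4866 probe sets by the labels, at 9 with the p53-/- labels exchanged and at 5 under both readings. Of 135 named probe sets, 98 differed by the labels, against 10.8% of all probe sets, but some were named for this difference or for a large change. With the labels exchanged the differences were -1.47 for Phlda3, -1.93 for Gtse1, -2.98 for Csrnp2, -1.86 for Dennd2c, -1.68 for Slc19a2, -1.48 for Rap2b, -1.19 for Trim11, and -1.88 and -1.04 for a pair of probe sets without a symbol.

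An array far from the other 3 of its group was found in 21 of 270 groups of 4 examined over the named probe sets, or 7.78%, where chance gives about 1 in 20. Untreated replicate 2 stood apart for 7 of them. It was high for Spry4 (6.53), Dusp6 (7.6), Gtse1 (6.5) and Col1a2 (6.01) and low for Aen (7.09), Zmat3 (6.02) and Skp2 (7.85). Untreated replicate 1 was high for Id4 (5.15) and Hmox1 (8.80) and low for Ddit3 (9.28), Slc3a2 (10.92) and Ndrg1 (8.81). Untreated replicate 4 was low for Gadd45a (9.15) and high for Rpl32 (12.82) and Rps7 (12.97). Among the H2O2 arrays, replicate 1 was low for Phlda3 (8.51) and Plau (6.57), replicate 2 low for Asns (10.48), Cth (8.2) and Tef (6.99), and replicate 3 high for Cox4i1 (11.93). The cause was not tested.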

How the results depend on the processing

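The number of calls depended on the setting. Against 2054 called in p53-/- MEFs, the counts were 4129 with the replicate block, 3940 with the array set as a block, 4383 with a replicate block within each genotype (chosen after seeing the data), 3726 and 0 with replicates 3 and 4 or 1 and 2 alone, 1176 with only the groups compared, 473 with the methods' t-test, 1281 with 1.5-fold and 494 with 2-fold added, and 1111 with 1 probe set per gene and p adjusted over those genes alone (1005 with p adjusted over all probe sets). Leaving out each array gave 1281 to 2324. Against 4866 differences from WT by the labels, the same settings gave 7781, 7536, 8328, 7644 and 619, 2385 with 2-fold added and 2494 with 1 probe set per gene so adjusted, and single arrays left out gave 4155 to 5248. Against 9 with the labels exchanged, they gave 15, 15, 5, 26 and 0, 4 with the methods' t-test, 154 with it and 186 with limma at an unadjusted p under 0.05 and 1.5-fold, and 7 to 22 with single arrays left out, 22 without WT H2O2 replicate 1. Against 470 level differences, for which all alternatives were chosen after seeing the data, the counts were 1906 with the replicate block, 1648 with the array set as a block, 920 with replicates 1 and 2 alone and 212 with the methods' t-test, and 258 to 578 with single arrays left out. The remaining settings stayed within 1.5 times. The replicate block added 19 calls among the 135 named probe sets and changed no other call of theirs. With replicates 1 and 2 alone 80 were no longer called, and without 1 array 14 were not. Slc19a2 and a probe set without a symbol, which were not called, turned from -0.01 and -0.02 to 0.11 and 0.08 with replicates 3 and 4 alone and to 0.08 and 0.09 without 1 array. List medians moved by less than their spread over replicate numbers in 27 to 30 of 30 lists. The cause was not tested. Signal near background limits the low probe sets.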

Other observations

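Replicate number 2 gave small changes for Spry4 and Dusp6 in both genotypes, which were chosen after their values were seen. For Spry4, p53-/- replicate 2 read 6.53 untreated and 7.10 after H2O2, and WT replicate 2 read 6.24 and 6.37. For Dusp6 the same arrays read 7.6 and 8.37 in p53-/- and 7.57 and 7.78 in WT MEFs. Over the 2054 called probe sets the median change in the called direction was 0.59 in replicate 2. It was 0.67, 0.73 and 0.77 in replicates 1, 3 and 4. Of the 2054, 98.9% kept the called sign in replicate 2, which their choice on these same arrays favours.

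Adipoq, an adipocyte hormone, was the only called gene among the markers of other cell types. It averaged 4.47 on the untreated arrays and 2.94 on the H2O2 arrays of p53-/- MEFs (change -1.53, adjusted p = 0.00045), while Fabp4, Lep and Cebpa changed by 0.16, -0.04 and 0.06 with adjusted p of 0.82 or more.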
